A study of Mus musculus with 96 samples.

Results

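The expression of 9 genes of the choroid plexus, listed by symbol, was followed through the brain samples of 16 male mice. The genes are Ttr, Kl, Folr1, Clic6, Aqp1, Otx2, Slc4a5, Sostdc1 and Enpp2, and a gene was taken from the transcript cluster, the probe set of a gene on the array, that carries its symbol and no other. Of the 9 genes, 8 had such a cluster among the 28310 on the arrays, 1 cluster each, and Enpp2 was not analysed here.

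The mice were 14 weeks old, 8 of C57BL/6J (B6) and 8 of NOD/ShiLtJ (NOD), an inbred strain prone to autoimmune diabetes. In each strain 4 mice received the antipsychotic clozapine at 4 mg/kg and 4 received vehicle, and all were killed 3 hours after the injection. One hemisphere was divided into forebrain and hindbrain and the other was left intact (whole brain), the cerebellum having been removed and the olfactory bulbs left on, so that each mouse gave 3 samples and each region 16. RNA of each sample was measured on the 1.1ST array, used here unless stated, and again on the 1.0ST array, which repeats the same RNA and is not an independent sample. Values are log2 intensities, on which a difference of 1 is a doubling.

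The choroid plexus is a fold of secretory epithelium over a core of vessels that hangs into the brain ventricles, makes most of the cerebrospinal fluid and forms the barrier between blood and that fluid. Plexuses lie in the ventricles of the forebrain and in that of the hindbrain, between brainstem and cerebellum. Among the 8 measured genes, Ttr encodes transthyretin, the carrier of thyroid hormone and retinol-binding protein in the fluid. Kl encodes klotho, a coreceptor for FGF23 that is also shed as a circulating protein, and Folr1 the folate receptor by which the plexus moves folate into the fluid. Aqp1 is the water channel of the apical membrane, Slc4a5 a sodium bicarbonate cotransporter and Clic6 a chloride channel family protein. Otx2 is a homeodomain transcription factor of the forebrain and midbrain needed for the plexus to form, and Sostdc1 is a secreted antagonist of BMP and Wnt signaling.

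The genes lie on different chromosomes except for Aqp1 and Slc4a5, according to the RefSeq annotation of mouse build GRCm38.p6. Kl spans chr5:150952607-150993817, Folr1 chr7:101858331-101870788 and Clic6 chr16:92498147-92541241. Aqp1 spans chr6:55336299-55348555, Slc4a5 chr6:83207580-83304945, Otx2 chr14:48656781-48667644 and Sostdc1 chr12:36314169-36318452.

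The 250 bases upstream of the outermost start of Kl, Aqp1 and Otx2 are shown from RefSeq, because Kl and Aqp1 were lower in hindbrain and Otx2 higher. They are Kl at chr5:150952357-150952606 (plus strand), Aqp1 at chr6:55336049-55336298 (plus strand) and Otx2 at chr14:48667645-48667894 (minus strand), each written 5′ to 3′ on the strand of the gene, with capitals for TATAAA or its reverse complement.
Kl: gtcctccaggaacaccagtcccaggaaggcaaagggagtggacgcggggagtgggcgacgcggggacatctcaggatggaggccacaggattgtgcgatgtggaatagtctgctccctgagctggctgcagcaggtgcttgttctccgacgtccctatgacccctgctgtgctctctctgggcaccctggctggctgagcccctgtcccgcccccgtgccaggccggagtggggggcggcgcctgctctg
Aqp1: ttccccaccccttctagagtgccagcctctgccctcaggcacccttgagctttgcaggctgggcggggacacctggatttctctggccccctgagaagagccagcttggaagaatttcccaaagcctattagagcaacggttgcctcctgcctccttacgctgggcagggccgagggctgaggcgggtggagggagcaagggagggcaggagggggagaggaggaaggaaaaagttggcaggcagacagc
Otx2: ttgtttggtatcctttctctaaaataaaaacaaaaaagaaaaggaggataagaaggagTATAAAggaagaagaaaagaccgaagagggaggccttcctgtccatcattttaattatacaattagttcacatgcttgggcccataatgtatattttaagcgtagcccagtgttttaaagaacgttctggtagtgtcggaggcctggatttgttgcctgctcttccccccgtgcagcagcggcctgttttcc

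Upstream windows were found for 4 of the 8 genes. The window of Otx2 holds a TATAAA and those of Kl and Aqp1 hold none on either strand, and this motif occurs in 12.4% of 32851 windows of 250 bases. The core motifs bound by OTX factors, TAATCC and TAATCT, occur on either strand in 6.25% and 7.31% of these windows, and 12.8% hold at least 1 of them. Of the 7 windows of the 4 genes with an entry, which include windows at internal starts, 1 held a core motif, at an internal start of Otx2 itself (chr14:48665110-48665359), and none of the 3 sequences shown above did. Of 52 windows of 38 other plexus genes, 8 held one. These matches describe the letters of the windows only.

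The arrays had medians between 6.28 and 6.61, so no array was rescaled. The labelled regions were checked by markers of cortical neurons, whose mean level lay between 8.83 and 9.15 in forebrain, between 5.72 and 7.38 in hindbrain and between 8.41 and 8.87 in 15 of the 16 whole brains. The whole brain of the NOD vehicle mouse DD656 stood apart at 7.88, and results that change without it are given with and without it. The batch of the arrays and the side of each hemisphere are not in the labels used here.

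Of the 8 genes, 5 passed the exact permutation test below as lower in hindbrain than in forebrain, and Otx2 as higher. That test was run on these genes only, so it gives no share over all transcripts. The linear model described below, without its surrogate variables, called 32.5% of all transcripts lower in hindbrain and 33.1% higher. Over 16 mice, Ttr had a mean of 12.01 (SD 0.34) in the forebrain samples, of 12.05 (SD 0.26) in the intact hemispheres and of 10.05 (SD 2.12) in the hindbrain samples. The forebrains ran from 11.20 to 12.36 with a median of 12.13, and the whole brains from 11.51 to 12.45 with a median of 12.09. The hindbrains ran from 6.33 to 12.72 with a median of 10.23, which is an 84.1-fold range. The gene of Ttr lies at chr18:20664209-20674326 in the same annotation. Some hindbrains thus held as much Ttr as any forebrain, and others lay far below all forebrains.

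**Figure D1:**
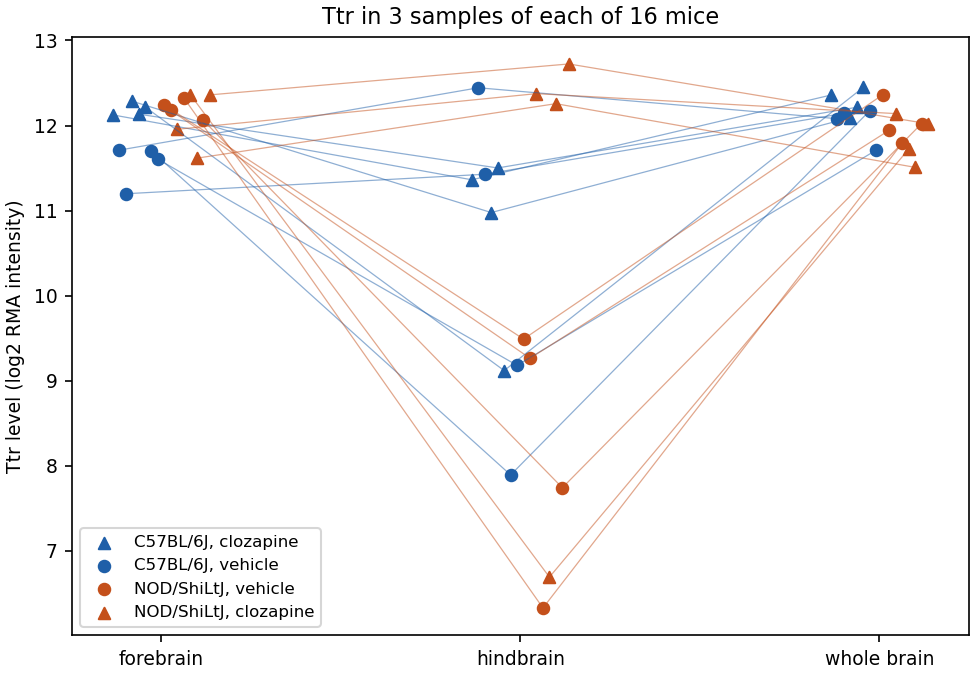
Log2 intensity of Ttr (vertical axis) in each sample of the 1.1ST arrays by region (horizontal axis), with colors for strain, triangles for clozapine, circles for vehicle and lines that join the 3 samples of a mouse. Forebrains and whole brains sit between 11.20 and 12.45, whereas hindbrains spread from 6.33 to 12.72.

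Each hindbrain can be read against its own group. In B6, hindbrain Ttr was 11.36, 10.98, 11.50 and 9.12 after clozapine and 12.44, 11.43, 7.89 and 9.18 after vehicle. In NOD it was 12.37, 6.69, 12.26 and 12.72 after clozapine and 9.49, 9.26, 6.33 and 7.74 after vehicle. High and low hindbrains were thus found in both strains, and every NOD vehicle hindbrain lay below every forebrain. In the same mice the forebrain held 12.13, 12.29, 12.13 and 12.22 in B6 after clozapine and 11.71, 11.20, 11.70 and 11.60 after vehicle, and in NOD 11.96, 12.36, 11.62 and 12.36 after clozapine and 12.24, 12.18, 12.33 and 12.06 after vehicle. In these bulk samples, fewer plexus cells and less RNA of a gene per cell cannot be told apart.

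Within mice, Ttr was lower in the hindbrain than in the forebrain in 11 of 16, by 1.96 on average (SD 2.24), which is a 3.88-fold lower level (two-sided exact permutation of the regions within mice, n = 16, p = 0.00348). The strains considered apart gave -1.38 in B6 (n = 8, exact permutation p = 0.0547) and -2.53 in NOD (exact permutation p = 0.0625), neither below 0.05. On the 1.0ST arrays the difference was -1.80 (exact permutation p = 0.00327).

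Kl and Folr1, the coreceptor and the folate receptor, had the same direction. Kl ran from 7.04 to 8.33 in forebrain (median 7.80) and from 5.97 to 8.36 in hindbrain (median 6.53), and was lower in the hindbrain of 12 of 16 mice by 0.84 on average (SD 0.92, exact permutation p = 0.00354). Folr1 ran from 6.19 to 7.36 in forebrain (median 6.94) and from 5.26 to 7.76 in hindbrain (median 5.95), with a mean difference of -0.72 (SD 0.94, lower in 12, exact permutation p = 0.00943). For both genes the regions overlapped, and the highest hindbrain lay above every forebrain.

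The ion and water genes also averaged lower in hindbrain. Clic6 ran from 6.17 to 7.78 in forebrain (median 7.12) and from 5.14 to 7.87 in hindbrain (median 6.03), a mean difference of -0.72 (SD 0.91, lower in 12, exact permutation p = 0.00772). Aqp1 ran from 5.50 to 6.37 in forebrain (median 5.92) and from 5.07 to 6.59 in hindbrain (median 5.34), a difference of -0.40 (SD 0.47, lower in 12, exact permutation p = 0.00555). Slc4a5 ran from 5.07 to 6.70 in forebrain (median 6.15) and from 4.93 to 7.71 in hindbrain (median 5.47), and its difference of -0.32 (SD 0.93, lower in 11) did not pass the test (exact permutation p = 0.188). The regions overlapped in each of these genes, and the highest hindbrain lay above every forebrain in all of them.

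Of the genes of signaling and plexus identity, Sostdc1, like Slc4a5, did not pass the test, and Otx2 had the opposite direction. Sostdc1 ran from 6.43 to 8.00 in forebrain (median 7.39) and from 5.89 to 8.66 in hindbrain (median 6.95), with a difference of -0.31 (SD 1.02, lower in 10, exact permutation p = 0.240). Otx2 ran from 5.24 to 7.50 in forebrain (median 6.43) and from 7.23 to 8.50 in hindbrain (median 7.84). It was higher in the hindbrain of 16 of 16 mice, by 1.56 (SD 0.81) or 2.95-fold (exact permutation p = 3.05e-05, the smallest that 16 mice allow). On the 1.0ST arrays the same 5 genes passed the permutation test as lower and Otx2 as higher, by 1.13 in 16 of 16 mice. Over all transcripts of these arrays, the linear model described below called 9.18% lower and 10.1% higher. The midbrain also expresses Otx2, so genes listed as midbrain markers were read beside it. How much midbrain tissue the samples held was not measured. Of 9 measured midbrain genes all 9 were higher in hindbrain in the limma fit across all transcripts that is described next, among them the transcription factors Gata3 (2.01), En2 (1.07) and En1 (0.89). On the 1.0ST arrays 4 of the 9 were called higher, and the median over the 9 was 0.16 in place of 0.69. Their part in the level of Otx2 was not tested.

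**Figure D2:**
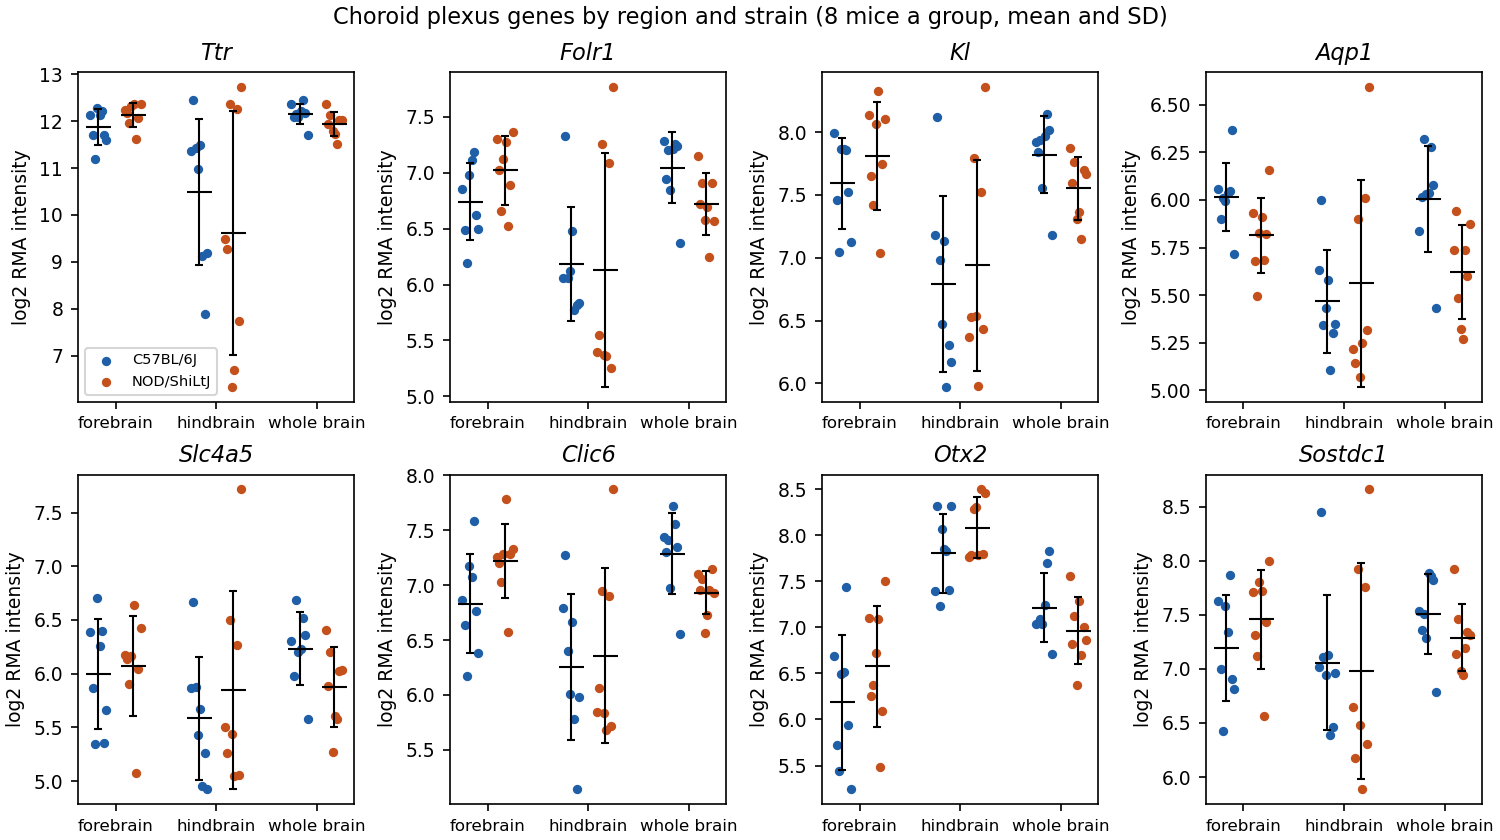
Log2 intensity (vertical axes, each panel with its own range) of the 8 genes in forebrain, hindbrain and whole brain on the 1.1ST arrays, with a point for each of 8 mice per strain and bars for the mean and SD. Otx2 is the gene whose hindbrains (7.23 to 8.50) lie high, and in the other panels the hindbrains reach below the forebrains.

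A linear model across all transcripts gave the same directions. It was fitted by limma with a mean for each strain and region, the treatment, the mouse as a random block and 5 surrogate variables, which are components computed from the arrays to carry variation outside the modelled groups, and a transcript was called at an adjusted p (false discovery rate) below 0.05. In hindbrain 7 of the 8 genes were called lower than in forebrain and 1, Otx2, higher, where 19.7% of all transcripts were called lower and 27.5% higher. The model gave Ttr a difference of -2.44 (SE 0.42, limma adjusted p = 2e-06), Folr1 -1.14 (SE 0.18), Kl -1.12 (SE 0.20), Clic6 -0.96 (SE 0.19), Sostdc1 -0.83 (SE 0.21), Slc4a5 -0.72 (SE 0.19), Aqp1 -0.49 (SE 0.11) and Otx2 0.97 (SE 0.19, limma adjusted p = 1.73e-05). The median over the 8 genes was -0.89, against 0.02 over all transcripts. The value of Ttr was -1.12 without the whole brain of DD656, which enters this fit through the surrogate variables and the shared spread. It was -1.08 without mouse BB703, -1.15 without BB702, -1.40 without DD657, -1.44 without DD656 and -1.55 without BB708, and was called each time.

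The surrogate variables took up part of the variation described here. They were not independent of the regions, which accounted for 0.197 and 0.202 of the variance of 2 of them as R2 and for up to 0.0972 of that of the other 3. Within groups they accounted for between 0.412 (Clic6) and 0.627 (Slc4a5) of the variance of these genes as R2, and 0.504 for Ttr. Without them, 6 genes were called lower and 1 higher (all transcripts, 32.5% lower and 33.1% higher), with Slc4a5 at -0.32 (limma adjusted p = 0.0398) and Sostdc1 at -0.31, not called (limma adjusted p = 0.0502). The median of the 8 genes was then -0.56. With arrays centred on their median the calls for the 8 genes were again 7 lower and 1 higher, against 34.8% lower and 23.7% higher over all transcripts. On the 1.0ST arrays with surrogate variables, Ttr (-1.71, limma adjusted p = 0.0391) and Folr1 (-0.50, 0.0474) were called lower and no gene higher (all transcripts, 9.18% lower). Without the whole brain of DD656, 3 genes were called lower, and leaving out mouse BB702 or BB703 left 4.

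**Figure D3:**
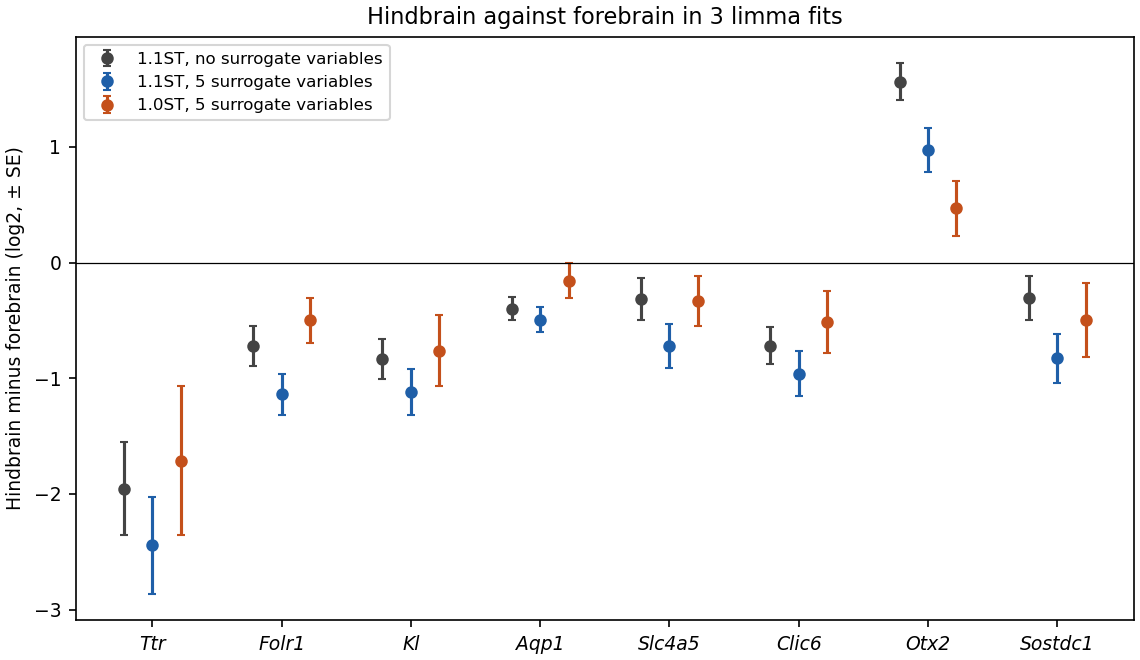
Log2 difference of hindbrain minus forebrain (vertical axis, points with SE) for the 8 genes (horizontal axis) over 16 mice in 3 limma fits, on the 1.1ST arrays without and with surrogate variables and on the 1.0ST arrays with them. Otx2 lies above 0 and the other 7 genes below 0 in each fit, with Ttr lowest (-1.96, -2.44 and -1.71).

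For Ttr, the levels of single mice spread more widely in hindbrain than in the other regions. The mean absolute deviation of Ttr from the median of its strain and region was 1.65 in hindbrain, against 0.25 in forebrain (exact permutation within mice, n = 16, p = 0.00134) and 0.17 in whole brain (exact permutation p = 0.000366). For Kl it was 0.59 in hindbrain against 0.32 in forebrain (exact permutation p = 0.0644) and 0.20 in whole brain (exact permutation p = 0.0097). Otx2 went the other way, with 0.32 in hindbrain and 0.56 in forebrain (exact permutation p = 0.00534). The p-values of this test are given per gene, and for 8 genes and 2 pairs of regions they are not adjusted. The deviations pool both treatments, so a difference between treatments counts as spread. Clozapine and vehicle differed by 2.80 in Ttr in NOD hindbrain and by 1.19 in Otx2 in B6 forebrain. The other genes are not given here.

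Among all 28310 transcripts in hindbrain, ranked by their SD within strains with both treatments pooled, Ttr was second (SD 2.14). Sostdc1 ranked 22, Folr1 24, Kl 29, Slc4a5 30, Clic6 39, Aqp1 272 and Otx2 403. In forebrain Otx2 ranked 17 (SD 0.69), followed by Slc4a5 at 80, Sostdc1 at 92, Clic6 at 234, Kl at 237, Folr1 at 447, Ttr at 477 and Aqp1 at 4441. The median SD of all transcripts there was 0.13. Plexus genes were thus among the most variable transcripts of the hindbrain. In forebrain this also held for the genes other than Aqp1, with Otx2 ranked highest.

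Which genes varied with Ttr between samples was asked within each region. A limma slope of every other transcript on Ttr was fitted with strain and treatment as separate terms. A clozapine difference that varied between the strains therefore stayed in the slopes. In forebrain, 6 of the 7 other genes rose with Ttr, where 0.184% of all transcripts did. The slopes, in log2 units per log2 unit of Ttr, were 1.69 for Otx2 (SE 0.29, limma adjusted p = 0.0163), 1.43 for Sostdc1 (SE 0.13), 1.38 for Slc4a5 (SE 0.16), 1.18 for Kl (SE 0.14), 1.09 for Clic6 (SE 0.16) and 0.96 for Folr1 (SE 0.11). Aqp1 had a slope of 0.23 and was not called (limma adjusted p = 0.447). In this region Otx2 thus rose with Ttr as the other genes called did, but on the 1.0ST arrays its slope was not called (0.96, limma adjusted p = 0.149). In B6 forebrain, clozapine and vehicle differed by 1.19 in Otx2 and by 0.64 in Ttr, against 0.07 and -0.13 in NOD. The part of these differences in the slopes was not tested. Without mouse DD676, 2 genes were called.

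In hindbrain, 5 of the 7 rose with Ttr, where 0.0247% of all transcripts, 7 in number, did. Sostdc1 had a slope of 0.36 (SE 0.05), Kl of 0.33 (SE 0.05) and Clic6 of 0.30 (SE 0.04), each with a limma adjusted p of 0.0199. Folr1 (0.32, adjusted p = 0.0273) and Slc4a5 (0.31, adjusted p = 0.0466) were also called, whereas Aqp1 (0.16, adjusted p = 0.058) and Otx2 (0.06, adjusted p = 0.436) were not. The slopes were lower than in forebrain, and Ttr spanned a wider range: in the hindbrain of DD659, at a Ttr of 6.33, Kl was 6.54, and in that of BB701, at a Ttr of 10.98, Kl was 6.47. Kl was thus near the same level in this pair, of different strains, which differed widely in Ttr. In the hindbrains of BB685, BB687 and BB702, at a Ttr of 11.36, 11.43 and 11.50, Kl was higher, at 7.18, 6.98 and 7.13. The levels of Kl in DD659 and BB701 lay within the range of the array medians (6.28 to 6.61), and Folr1, Aqp1 and Slc4a5 lay below it in both samples. How near such levels are to the floor of the arrays was not tested. A flat level there cannot be read as a level independent of Ttr. The difference between the slopes was not tested. With Ttr read from the 1.0ST array of the same RNA, 6 of the 7 were called in hindbrain, now also Aqp1 (0.19, limma adjusted p = 0.0224), where 0.392% of all transcripts rose with Ttr, 111 in number. The hindbrain calls rested on single mice, since leaving out any of BB686, BB703, DD658, DD675, DD677 or DD678 left none of the 5 below the threshold.

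In whole brain, Kl (slope 1.06, limma adjusted p = 0.00477) and Folr1 (1.098, adjusted p = 0.00865) rose with Ttr, among 0.0177% of all transcripts, 5 in number. Sostdc1 (1.14, adjusted p = 0.0959) and Slc4a5 (1.20, adjusted p = 0.0857) had slopes of similar size that did not pass. Without mouse BB708 neither gene was called in whole brain, and without DD656 1 was. Counts on the 1.0ST arrays were 3 genes in forebrain, 3 in hindbrain and 1 in whole brain.

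**Figure D4:**
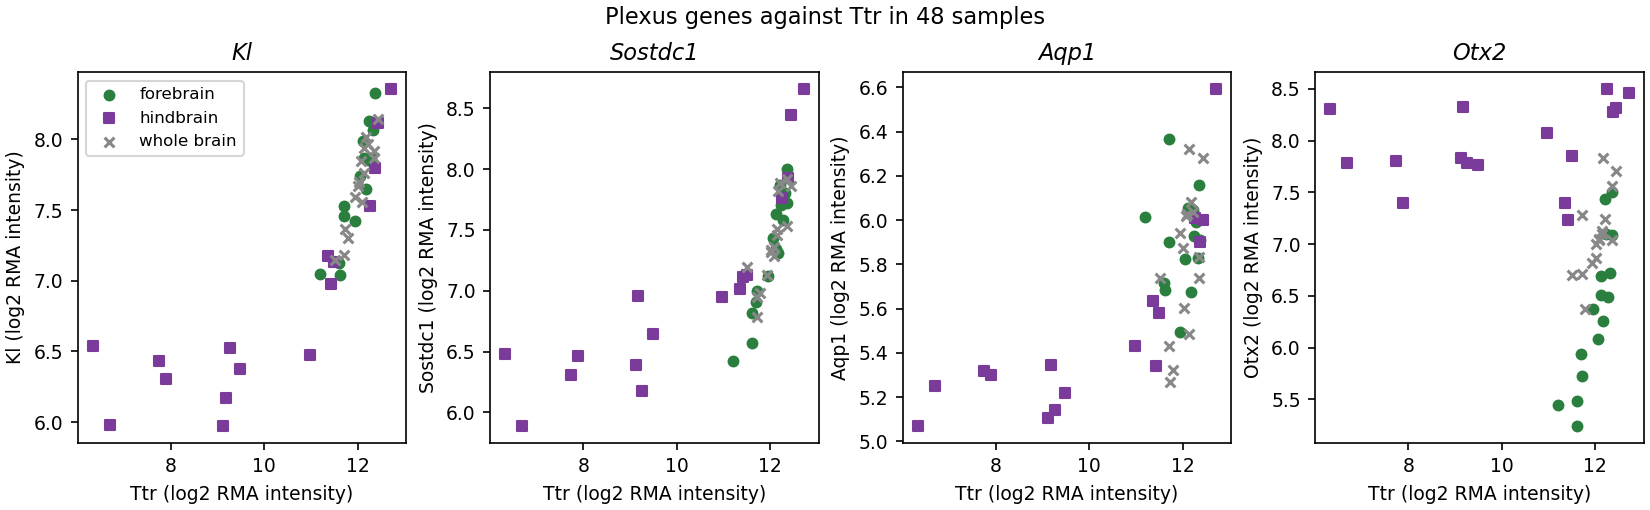
Log2 intensity of Kl, Sostdc1, Aqp1 and Otx2 (vertical axes) against that of Ttr (horizontal axes) in the 48 samples of the 1.1ST arrays, with symbols for the 3 regions. In hindbrain Kl runs from 5.97 to 8.36 while Ttr runs from 6.33 to 12.72, and Otx2 lies between 7.23 and 8.50.

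Over all 48 arrays, deviations from the means of the 12 groups of strain, region and treatment were compared with those of Ttr. Of 21206 other clusters with 1 symbol, the 4 most like Ttr were Folr1 (r = 0.80), Kl (0.79), Sostdc1 (0.78) and Clic6 (0.77). Ecrg4, a secreted plexus peptide precursor, came next (0.76), followed by Slc4a5 (0.71), Tmem72 (0.71), Car12, a carbonic anhydrase (0.69), F5, coagulation factor V (0.69), and Kcnj13, an inward rectifier potassium channel (0.67). The list of 15 was completed by Gmnc (0.67), a regulator of multiciliated cells, Krt18, an epithelial keratin (0.64), Kcne2, a potassium channel subunit of the plexus (0.64), Cadps2 (0.64) and Appl1 (0.63). Aqp1 ranked 27 among these clusters (0.60), and Otx2 ranked 3226 (0.22). The median r over all transcripts was 0.01, and 161 of 28309 reached 0.5. These are descriptions over arrays that share mice, and the wide spread of hindbrain Ttr weighs most in them.

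The genes also varied with each other. Among the 15 pairs of the 6 genes other than Ttr and Otx2, r within groups ran from 0.72 to 0.93 with a median of 0.86. The 7 pairs with Otx2 ran from 0.22 to 0.64. Between the array formats, which share the RNA, the level of Ttr over 16 mice had an r of 0.973 in forebrain, 0.951 in hindbrain and 0.958 in whole brain. Aqp1 had the lowest values of the 8 genes, from 0.695 to 0.790. The hindbrain of DD656 held less Ttr on the 1.0ST array (8.50) than on the 1.1ST array (9.49), whereas the other hindbrains read higher on the 1.0ST arrays.

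Other plexus genes, from lists of known plexus genes by function, were called in both directions between the regions. Of 36 measured, 17 were lower in hindbrain and 12 higher, where 19.7% and 27.5% of all transcripts were, with a median of -0.15 (0.02 over all transcripts). The share called higher was thus near that of all transcripts. Without surrogate variables 15 were lower and 14 higher, near the 32.5% and 33.1% of all transcripts. From the 1.0ST arrays, 4 were lower and 5 higher, where 9.18% and 10.1% of all transcripts were. The values of single genes below are those of the 1.1ST arrays with surrogate variables. Of 9 genes of ion and water transport 6 were lower, led by Car12 (-1.66), Kcnj13 (-0.78) and the tight junction gene Cldn1 (-0.66). The other 3 were higher, namely the anion exchanger Slc4a2 (0.63), the cotransporter Slc12a2 (0.59) and the cation channel Trpm3 (0.49). Of 8 other transporters and receptors 5 were higher, led by Htr2c, a serotonin receptor that neurons also express (0.70), Slc29a4 (0.50) and Slc13a4 (0.49), and 2 were lower, Abca4 (-0.50) and Steap1 (-0.27).

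Of 9 secreted and matrix genes, 4 were lower, Ecrg4 (-0.80), F5 (-0.80), Sulf1 (-0.52) and Lbp (-0.41), and 3 were higher, Igf2 (0.35), Igfbp2 (0.29) and Wfikkn2 (0.14). Of 10 other epithelial genes 5 were lower, among them Tmem72 (-0.63), Calml4 (-0.45) and Rbm47 (-0.27), and 1 was higher, Cab39l (0.28). Several genes higher in hindbrain, such as Igf2 and Slc13a4, are also made by the meninges, and of 12 meningeal markers 9 were higher in hindbrain and none lower, led by Slc13a3 (0.93), Ogn (0.86) and Aldh1a2 (0.79). Of 7 brainstem markers all 7 were higher, of 6 telencephalic markers all 6 were lower and of 2 blood markers 1 was higher. Endothelial markers were higher in 9 of 11 and oligodendrocyte markers in 8 of 8, whereas of 12 markers of ependyma, the ciliated lining of the ventricles, 1 was higher and 2 lower (6 and 1 without surrogate variables). Fewer were called on the 1.0ST arrays, namely 4 of the meningeal, 3 of the brainstem, 3 of the endothelial and 7 of the oligodendrocyte markers as higher, and 6 of the telencephalic and 2 of the ependymal markers as lower. The part of these tissues in the plexus genes was not tested.

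The same lists were set against Ttr within regions. In forebrain, 17 of the 36 other plexus genes rose with Ttr, led by Kcnj13 (slope 1.54, SE 0.15), Lbp (1.13, SE 0.15) and F5 (1.05, SE 0.15). They included genes that were called higher in hindbrain than in forebrain, such as Igf2 (0.74), Trpm3 (0.57) and Slc4a2 (0.55). In hindbrain Ecrg4 (0.33, limma adjusted p = 0.0371) and Tmem72 (0.22, adjusted p = 0.0402) rose with Ttr. With the 5 genes above they made up the 7 transcripts called as rising, and 5 other transcripts were called as falling. With Ttr read from the 1.0ST array, 111 transcripts rose with it in hindbrain and 230 fell. In whole brain Kcnj13 (1.22), Lbp (1.17) and Tmem72 (0.98) made up the 5 together with Kl and Folr1. These counts depended on the array. With Ttr read from the 1.0ST array, 15 of the 36 rose with it in forebrain (0.166% of all transcripts) and 14 in hindbrain (0.392%). With all values from the 1.0ST arrays, 4 did in forebrain (0.0389%) and 3 in hindbrain (0.0283%). No marker of ependyma (12 measured), meninges (12), endothelium (11), oligodendrocytes (8), midbrain (9), telencephalon (6), brainstem (7) or blood (2) was called in any region on the 1.1ST arrays, and with Ttr read from the 1.0ST array 1 marker each of meninges, endothelium and midbrain was called lower in hindbrain. Median slopes in forebrain were 0.25 for ependyma, 0.26 for endothelium, 0.24 for brainstem, 0.22 for oligodendrocytes and 0.06 for meninges, against 0.02 over all transcripts. On the 1.0ST arrays they were 0.13 for ependyma and 0.07 for endothelium, against -0.01. In hindbrain on the 1.1ST arrays they were 0.08 for ependyma and -0.05 for both endothelium and meninges. The other medians are not given here. Over the 48 arrays, the ependymal markers Spag6l (r = 0.58), Rsph1 (0.54) and Dnah6 (0.48) ranked 37, 71 and 171 in likeness to Ttr among clusters with 1 symbol. Other markers had a negative r, such as Slc13a3 of the meninges (-0.54) and Abcb1a of the endothelium (-0.46). The part of these tissues in the slopes was not tested.

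Whole brain was compared with forebrain in the same way. By limma 0 of the 8 genes were called lower in whole brain than in forebrain (5.89% of all transcripts) and 1, Otx2, was called higher (8.48%), and Otx2 was also the only gene of the 8 with an unadjusted p below 0.05. Otx2 ran from 6.37 to 7.83 in whole brain with a median of 7.04, between the 2 dissected regions, and was higher than in the forebrain of the same mouse in 14 of 16, by 0.71 (exact permutation p = 0.00125). By limma the difference was 0.38 with surrogate variables (SE 0.14, adjusted p = 0.0477) and 0.71 without (adjusted p = 0.000658, where 12.3% of all transcripts were called higher), and it was not called under 11 of the alternatives, among them the mixed model (adjusted p = 0.0587), the mouse as a fixed block (0.094) and the 1.0ST arrays (0.394). In the same contrast 6 of 9 midbrain, 8 of 8 oligodendrocyte, 5 of 12 meningeal and 3 of 7 brainstem markers were called higher, and their part in the level of Otx2 was not tested. For Ttr the mean difference within mice was 0.04 (exact permutation p = 0.689), while hindbrain lay 2.00 below whole brain (exact permutation p = 0.00189).

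No relation of Ttr between samples of the same mouse passed the test. Between forebrain and whole brain, which come from opposite hemispheres, r was 0.165 (permutation p = 0.544) and rho 0.0147 (permutation p = 0.960) over 16 mice. Between forebrain and hindbrain r was -0.298 (permutation p = 0.266) and rho -0.253 (permutation p = 0.342), and between hindbrain and whole brain r was 0.183 (permutation p = 0.5001) and rho 0.109 (permutation p = 0.689). After Benjamini-Hochberg adjustment over the 3 pairs each p of r was 0.544 and each p of rho 0.960. Without the 2 mice farthest from the median, r was 0.167, -0.330 and -0.145. Within B6 the 3 values, in this order, were 0.479, 0.0138 and 0.0733, and within NOD 0.354, -0.506 and 0.121.

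The strains differed in hindbrain Ttr in the model with surrogate variables and not in the raw levels. B6 hindbrains averaged 10.49 ± 1.56 and NOD hindbrains 9.61 ± 2.60 (SD, n = 8), and the strains overlapped widely. The raw difference of NOD minus B6 was -0.88 (exact permutation p = 0.414; limma without surrogate variables, adjusted p = 0.247). With surrogate variables it was -1.94 (SE 0.45, limma adjusted p = 0.000762), the only call among the 8 genes, where 20.4% of all transcripts were called. Without mouse DD675, whose hindbrain held 6.69, this value was -0.24 and without mouse DD678 it was -1.24, neither called. In the same contrast 5 of 12 ependymal markers were called lower in NOD (8 on the 1.0ST arrays), as were 4 of 11 endothelial and 2 of 6 telencephalic markers. Called higher were 5 of 12 meningeal, 3 of 7 brainstem, 3 of 8 oligodendrocyte, 1 of 9 midbrain, 1 of 12 ependymal and 1 of 2 blood markers. Their part in the difference of Ttr was not tested.

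The interaction of strain with the difference between hindbrain and forebrain was likewise called for Ttr alone of the 8 (-2.21, SE 0.59, limma adjusted p = 0.026, where 2.29% of all transcripts were called). It was -1.14 without surrogate variables (adjusted p = 0.652) and -0.43 without mouse DD675 (adjusted p = 0.606), and 12 of the alternatives ended the call. In forebrain no gene was called between strains by limma (17.7% of all transcripts were), with 2 of the 8 at an unadjusted p below 0.05 and a Ttr difference of 0.27 (adjusted p = 0.491). In forebrain Ttr averaged 11.87 ± 0.38 in B6 and 12.14 ± 0.26 in NOD (SD, n = 8).

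In whole brain Aqp1 was lower in NOD. It averaged 5.62 there and 6.00 in B6 (exact permutation p = 0.0135), and the model gave -0.37 (SE 0.10, limma adjusted p = 0.00606), the only call of the 8 genes among 18.0% of all transcripts. Without surrogate variables the difference was -0.38 and was not called (adjusted p = 0.0726), nor was it on the 1.0ST arrays (-0.17, adjusted p = 0.133) or without mouse DD675. In whole brain all 8 genes averaged lower in NOD, and 3 of the 8 had an unadjusted exact permutation p below 0.05, Aqp1, Clic6 (-0.36, p = 0.0306) and Folr1 (-0.32, p = 0.0462). This test was run on the 8 genes only, without a share over all transcripts. The 3 genes vary together (r within groups from 0.73 to 0.86), so they are not separate observations.

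Clozapine was tested over the 3 samples of each mouse and in single groups. In the model none of the 8 genes was called (2.92% of all transcripts were), with 1 of the 8 at an unadjusted p below 0.05, and a mixed model for each transcript likewise called none of the 8, with 1 at an unadjusted p below 0.05, while it called 0.0530% of all transcripts. The clozapine difference of Ttr was 0.04 with surrogate variables (SE 0.26, limma adjusted p = 0.776) and 0.65 without (adjusted p = 0.365), and its mean per mouse gave an exact permutation p of 0.0706. Clic6 (0.32, exact permutation p = 0.0176), Folr1 (0.29, p = 0.0282) and Otx2 (0.29, p = 0.0473) had an unadjusted p below 0.05 over mice, and all 8 genes averaged higher after clozapine. The permutation test was run on the 8 genes only, without a share over all transcripts, and these genes vary together.

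Of the 6 groups of strain and region, B6 forebrain and NOD hindbrain are described here, chosen after their values were seen, and their p-values are not adjusted for that choice. In B6 forebrain, the 4 clozapine samples lay above the 4 vehicle samples in 7 of the 8 genes, all but Aqp1, where 1.49% of all transcripts showed this. Otx2 held 6.69, 6.49, 6.51 and 7.44 after clozapine and 5.73, 5.44, 5.94 and 5.24 after vehicle, a difference of 1.19 (SE 0.30, limma adjusted p = 0.477). Slc4a5 differed by 0.88, Sostdc1 by 0.82, Clic6 by 0.69, Ttr by 0.64, Kl by 0.61 and Folr1 by 0.58, each with an exact permutation p of 0.0286, the smallest that 4 against 4 allow. Over all transcripts limma with 12 group means and no surrogate variables called 0% here, with 4 of the 8 genes at an unadjusted p below 0.05. The 7 genes vary together in forebrain, so they are not 7 separate observations. On the 1.0ST arrays 6 of the 8 did not overlap, and the share of all transcripts was not counted on that format.

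Markers of other cells in the same B6 forebrains were read beside this. The mean level of the ependymal markers ran from 5.57 to 5.82 after clozapine and from 5.44 to 5.56 after vehicle. That of oligodendrocyte markers ran from 9.32 to 9.64 and from 9.15 to 9.31. Neither overlapped, but the nearest values were close, 5.566 and 5.563 for ependyma and 9.3225 and 9.3118 for oligodendrocytes. Meningeal markers (6.60 to 7.08 and 6.67 to 7.02) and endothelial markers (8.04 to 8.24 and 8.00 to 8.13) overlapped. On the 1.0ST arrays the ependymal markers again did not overlap (7.25 to 7.37 and 7.13 to 7.24). The oligodendrocyte markers did overlap there (10.37 to 10.76 and 10.25 to 10.39). Their part in the difference was not tested.

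In NOD hindbrain, 3 of the 4 clozapine samples were high in plexus genes and the fourth, of mouse DD675, was low. The 3 high samples came from mice killed earlier than DD675 and earlier than all 4 vehicle mice. Within NOD, hindbrain Ttr fell with the minute of killing (r = -0.848). The parts of clozapine and of the time of killing were not tested. Folr1 held 7.25, 5.36, 7.08 and 7.76 after clozapine and 5.40, 5.55, 5.37 and 5.26 after vehicle, a difference of 1.47 (SE 0.29, limma adjusted p = 0.00389). Aqp1 held 5.90, 5.25, 6.01 and 6.59 after clozapine and 5.22, 5.14, 5.07 and 5.32 after vehicle, a difference of 0.75 (SE 0.19, adjusted p = 0.0265). These were the 2 of 8 genes called by limma with 12 group means, where 1.29% of all transcripts were, and Ttr differed by 2.80 (SE 0.77, adjusted p = 0.0512). None of the 8 genes separated the groups, where 2.49% of all transcripts had all clozapine above all vehicle samples, and their exact permutation p ran from 0.0571 to 0.229.

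On the 1.0ST arrays 5 genes were called in NOD hindbrain, where 304 of 28310 transcripts were, with Ttr at 2.89 (limma adjusted p = 0.0130). On that format 1 of the 8 genes, Slc4a5, separated the groups (exact permutation p = 0.0286). The SE of limma pools the spread of the 12 groups. On the 1.1ST arrays of the NOD hindbrains, the meningeal markers ran from 6.97 to 7.43 after clozapine and from 7.23 to 7.82 after vehicle. The ependymal markers ran from 5.45 to 6.09 and from 5.36 to 6.05 there, and the endothelial markers from 7.97 to 8.26 and from 8.21 to 8.39. None of the 8 genes was called for clozapine in B6 hindbrain, in NOD forebrain or in the whole brain of either strain.

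**Figure D5:**
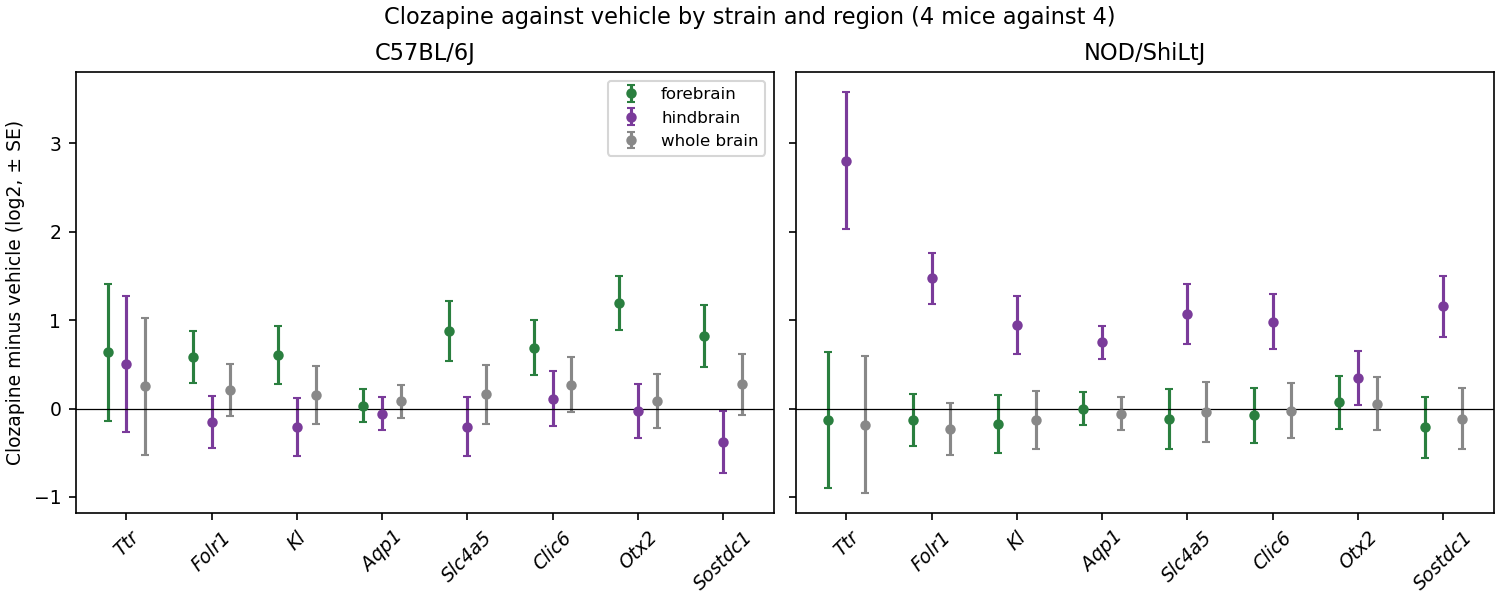
Log2 difference of clozapine minus vehicle (vertical axis, points with SE from limma with 12 group means) for the 8 genes (horizontal axis) in the 3 regions of C57BL/6J (left) and NOD/ShiLtJ (right) on the 1.1ST arrays, 4 mice against 4. Ttr (2.80) and Folr1 (1.47) are highest in NOD hindbrain and Otx2 (1.19) in B6 forebrain, and 8 of 8 genes lie above 0 in these groups and in B6 whole brain.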

How the data were processed

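RNA of 48 brain samples from 16 mice was hybridized to 2 formats of the same Affymetrix gene array. The deposited files hold 1 log2 intensity per transcript cluster and array, which the authors summarized and normalized by RMA within each format with Affymetrix Expression Console 1.1, according to the submitters' processing notes. Samples were grouped by the labels. The genes and marker lists were written from general knowledge and chosen with earlier results of these data known. Each gene was represented by its cluster with 1 symbol, and of 28310 clusters 21207 carry 1 symbol and 1867 several. The number of arrays limits the precision.

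Differences were fitted over all clusters in R 4.3.3 (limma 3.58.1, statmod 1.5.0) from the 1.1ST arrays. The design held 6 means of strain and region, treatment, 5 surrogate variables (each the first component of 1000 transcripts, built by the steps of the study's methods but without the batch) and the mouse as a random block (consensus correlation 0.0310). The false discovery rate follows the formula of the methods. Single genes were tested by exact permutation, two-sided, with 65536 exchanges of regions within mice, 12870 of strains and 4900 of treatments within strains. Slopes on Ttr were fitted within each region without surrogate variables. The pairing comes from the mouse number in the labels: residuals within a mouse correlated at 0.0953 on average between forebrain and hindbrain, at 0.0495 between forebrain and whole brain and at 0.0169 between hindbrain and whole brain. Mixed models used lme4 1.1.37 and lmerTest 3.1.3. Permutations ran in Python 3.11.15 with scipy 1.17.1.

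Alternatives were the 1.0ST arrays, no surrogate variables, no block or a fixed block, mixed models, the Benjamini-Hochberg adjustment, centred arrays, a filter on the mean (above 5) or on the symbol (1 only), and each mouse left out. Added after seeing the data were residual components as surrogate variables, clozapine within each strain and region, and the test of spread. Named in full are the 8 genes, up to 3 genes in each direction of every other list, with further members where they clarify it, and the 15 clusters most correlated with Ttr. Promoter windows come from RefSeq on GRCm38.p6, and the build of the array annotation is not given in the sources used here.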

Additional observations from a re-analysis of the deposited data

Results flagged for a closer look

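In 48 groups of 8 mice (each gene in each region and strain), 3 values, from 2 samples, lay farther from the other mice than Dixon's 95% limit allows, where chance flags about 1 in 20 groups. The hindbrain of the B6 vehicle mouse BB686 was highest in Sostdc1 (level 8.45, gap 0.642 of the range) and in Folr1 (level 7.32, gap 0.543 of the range). The forebrain of the NOD clozapine mouse DD676 was lowest in Slc4a5 (level 5.07, gap 0.529 of the range). The difference between hindbrain and forebrain in Ttr differed between the strains by an interaction of -2.211 in limma with surrogate variables (adjusted p = 0.026), which was not called without them or without mouse DD675.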

How the results depend on the processing

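Ttr was lower in hindbrain than in forebrain and called under each of the alternatives run, with values from -2.585 to -1.08 when 1 mouse was left out. Of the 8 genes, 7 were called lower in hindbrain, 2 on the 1.0ST arrays, 3 without the whole brain of mouse DD656 and from 4 to 7 without 1 mouse, and Slc4a5 was at 0.042 without that whole brain; the exact permutation tests, which do not use the model, gave 5 lower genes in both formats and without any 1 mouse. Counts lower in whole brain were 0, and 1 (Aqp1) with centred arrays. Strain calls in forebrain were 0, and 1 with centred arrays, when filtered to a mean above 5 or without the whole brain of DD656, and from 0 to 2 without 1 mouse. In hindbrain they were 1, 0 without surrogate variables or with residual components, 2 when filtered to a mean above 5 or to 1 symbol, and from 0 to 3 without 1 mouse. In whole brain they were 1, 0 on the 1.0ST arrays or without surrogate variables, and from 0 to 1 without 1 mouse. Calls of the interaction were 1, 0 without surrogate variables, with centred arrays, without the whole brain of DD656 or with residual components, and from 0 to 4 without 1 mouse. For clozapine they were 0, and 1 (Clic6) with residual components. The difference of Ttr between whole brain and forebrain (-0.221, not called) was 0.067 on the 1.0ST arrays, 0.041 without surrogate variables or with residual components, 0.019 without the whole brain of DD656 and from -0.296 to 0.163 without 1 mouse. The strain difference of Ttr in forebrain (0.273, not called) was -0.124 without that whole brain and from -0.064 to 0.361 without 1 mouse, and in whole brain (-0.289, not called) it was 0.019 and from -0.338 to 0.045. In hindbrain (-1.937) it was -0.879 and no longer called without surrogate variables or with residual components, and ran from -2.223 to -0.242 without 1 mouse, not called without mouse DD675 or DD678. The clozapine difference of Ttr (0.04) ran from -0.077 to 0.633 without 1 mouse. Genes that rose with Ttr were 3 of 6 in forebrain, 3 of 5 in hindbrain and 1 of 2 in whole brain on the 1.0ST arrays, 4 in whole brain without strain and treatment terms, and from 2 to 6, from 0 to 6 and from 0 to 3 without 1 mouse. Centred arrays moved the median slope of all transcripts in forebrain from 0.02 to -0.11. The pairing was tried with no replicate block and with the mouse as a fixed replicate block, which ended the call of Otx2 between whole brain and forebrain (0.385, limma adjusted p = 0.0509, and 0.370, adjusted p = 0.094) and of no other named result. The alternative of other clusters of a gene gave no value, since each gene has 1. Except where stated, the causes were not tested.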

Other observations

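Ttr was set against 2 numbers in the labels, the minute of killing and the body weight, in each region (6 relations, adjusted together by Benjamini-Hochberg). The mice were killed over 150 minutes, with a median of 40 minutes after the first mouse for clozapine and 95 for vehicle. Hindbrain Ttr was lower in mice killed later (r = -0.643, permutation p = 0.00818, adjusted p = 0.0491; rho = -0.621, permutation p = 0.0122, adjusted p = 0.0735; n = 16). Without the 2 mice farthest from the median time r was -0.510, within B6 -0.288, within NOD -0.848, within clozapine -0.919 and within vehicle -0.0190. By the medians of 40 and 95 minutes, time of killing and treatment moved together, and the part of either was not tested. In forebrain r was -0.0913 and in whole brain -0.0451. For body weight the lowest adjusted p was 0.155, in forebrain (r = 0.492).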
